A study of Mus musculus with 3 samples.

Results

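The 5508 autosomal probes described here carry a genome coordinate where other probes of the array carry a gene name, so the array design placed them at no annotated gene. They were chosen by that field alone, not by any measured value, and made up 2.32% of the 237203 non-control probes; 222688 autosomal probes had a gene name, and 268 further unnamed probes lay on chromosome X. All 3 arrays came from C2C12, an established mouse myoblast line, arrested in G0 in 2% methylcellulose, fixed in 1% formaldehyde and quenched in 0.125 M glycine. The PRDM2 group comprised 2 arrays of chromatin precipitated (IP) with an antibody to that protein, and the H3K9me2 group was chromatin precipitated with an antibody against dimethylated lysine 9 of histone H3 on 1 array. On every array the IP was labelled with Cy5 and the input chromatin with Cy3, with no exchange of dyes. The labels do not say that the PRDM2 arrays came from separate cultures, so a p-value here measures only the spread between these 2 arrays. The test used, limma, draws that spread in part from all probes or regions fitted. A p-value therefore does not follow from the 2 values of a probe or region alone. The H3K9me2 array had no replicate. Each array was its own slide, so array and antibody cannot be told apart.

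PRDM2 belongs to the PRDM family of proteins with a PR/SET domain and has been described as a methyltransferase for lysine 9 of histone H3. Dimethylation of that lysine is known as a mark of silent chromatin. A microRNA (miRNA) is a short RNA released from a hairpin in a longer transcript, and its seed, bases 2 to 8, guides it to its target transcripts.

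The unnamed probes fell into 441 runs with gaps of at most 1000 bp, called regions here. Of these, 377 had at least 3 probes and held 5421 of the probes, with a median of 16 probes over 3429 bp and at most 27 probes; 23 regions had 2 probes and 41 had 1. The nearest probe with a gene name lay 7599 bp away at the closest, 79795.5 bp at the median and 1504070 bp at the farthest. Exact sequence matching to RefSeq (GRCm38.p6) gave names to part of them. A total of 47 probes shared at least 16 bases with 49 miRNA hairpins in 33 regions, and 199 probes matched the window from 250 bases before to 50 bases after the start of 133 RefSeq genes in 119 regions. Both kinds of match occurred in 5 regions and neither in 294. Coordinates below are those of the array design, whose build the sources used here do not name, and it is not GRCm38: only 1.16% of matched probes had the same coordinate there.

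The mature miRNAs below, from RefSeq (GRCm38.p6), have the seed in capitals. They are shown because several unnamed regions share a product or a seed, or because the region is described in detail below, and they include regions that were called and regions that were not. The miR-9 sequence comes from 3 unnamed regions, miR-29b and miR-129-5p from 2 each, and let-7b and let-7d share a seed.
miR-34a-5p: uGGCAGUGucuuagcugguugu
miR-9-5p: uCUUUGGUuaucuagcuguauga
miR-129-5p: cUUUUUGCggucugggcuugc
miR-133b-3p: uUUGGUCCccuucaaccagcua
miR-29a-3p: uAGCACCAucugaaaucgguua
miR-29b-3p: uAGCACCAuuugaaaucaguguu
let-7b-5p: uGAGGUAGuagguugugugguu
let-7d-5p: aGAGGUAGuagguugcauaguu
miR-125b-5p: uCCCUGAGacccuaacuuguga

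The next probes lie on those hairpins and show what the array measured there. Capitals mark the bases shared with the hairpin, and each probe is printed 5′ to 3′ as the files give it. The Mir129-2 probe reads along the strand opposite to that hairpin, which is the strand of Mir129b, and the others read along the strand of theirs.
Mir9-1 probe, chr3:88301586-88301633: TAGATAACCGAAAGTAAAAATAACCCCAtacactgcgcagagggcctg
Mir9-2 probe, chr13:84212036-84212095: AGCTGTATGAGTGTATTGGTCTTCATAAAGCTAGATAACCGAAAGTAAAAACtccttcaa
Mir9-3 probe, chr7:79378820-79378875: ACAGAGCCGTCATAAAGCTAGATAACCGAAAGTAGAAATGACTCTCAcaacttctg
Mir129-2 probe, chr2:94042213-94042262: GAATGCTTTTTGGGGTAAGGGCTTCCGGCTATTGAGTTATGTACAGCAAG
Mir34a probe, chr4:148912283-148912339: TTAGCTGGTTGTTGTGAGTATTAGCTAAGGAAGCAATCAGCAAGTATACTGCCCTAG
Mir133b probe, chr1:20667943-20667987: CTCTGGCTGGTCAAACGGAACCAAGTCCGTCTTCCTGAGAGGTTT

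The last set holds probes with extreme PRDM2 values and probes of the regions with extreme values, printed as the files give them, with no strand stated there. Capitals mark each CG, the dinucleotide that is methylated in mouse DNA and is dense in many promoters.
High on PRDM2, chr2:57923779-57923825: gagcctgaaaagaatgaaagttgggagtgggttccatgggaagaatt
High on PRDM2, chr1:168145868-168145912: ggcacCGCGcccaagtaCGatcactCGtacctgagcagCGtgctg
High on PRDM2, chr12:114557849-114557908: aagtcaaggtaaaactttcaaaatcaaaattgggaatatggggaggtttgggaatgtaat
Low on PRDM2, chr6:41472481-41472534: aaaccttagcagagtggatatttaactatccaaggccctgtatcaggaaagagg
Low on PRDM2, chr5:111465485-111465539: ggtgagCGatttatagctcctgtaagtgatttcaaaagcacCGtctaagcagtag
Highest H3K9me2 region, chr6:57115687-57115746: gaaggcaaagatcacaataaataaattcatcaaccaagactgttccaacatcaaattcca

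Values below are log2 of IP over input signal, with the median non-control probe of each array at 0. Before centring, that median probe was at -0.91, -0.80 and -0.27 on PRDM2 array 1, PRDM2 array 2 and the H3K9me2 array. The values are skewed: the mean over all probes lay at 0.64, 0.48 and -0.23. A mean over a region is therefore above the median probe on PRDM2 arrays for most regions of the array, and the median of all 16965 regions tested was 0.49 for PRDM2 and -0.24 for H3K9me2. Input was well above background for 97.5%, 98.8% and 89.7% of the unnamed probes, and the IP for 70.0%, 67.0% and 74.98%. The small number of arrays limits the precision.

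Without regard to base composition, the unnamed probes were lower than named ones on every array. Their medians were -0.11, -0.15 and -0.13 on PRDM2 array 1, PRDM2 array 2 and the H3K9me2 array, against -0.01, -0.01 and -0.02 for named probes. They were also poorer in G and C, with a median of 39.6% against 41.5%, and 42.1% of them held a CG against 50.7% of named probes. On all 3 arrays the ratio moved with GC content, but it did not rise steadily from the poorest class. In that class, up to 31.7% GC, the medians of 405 unnamed probes were -0.01, -0.04 and -0.07. Those of 12363 named probes were -0.08, -0.09 and -0.12. In the class of 36.8% to 38.3% GC the medians of 609 unnamed probes were -0.42, -0.51 and -1.01, against -0.38, -0.44 and -0.88 for 19103 named probes. In the class above 64.6% GC the medians of 120 unnamed probes were 3.80, 3.88 and 1.54, against 3.81, 3.84 and 1.66 for 8999 named probes. Both kinds of probe were highest in the richest of the 17 classes on every array.

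**Figure D1:**
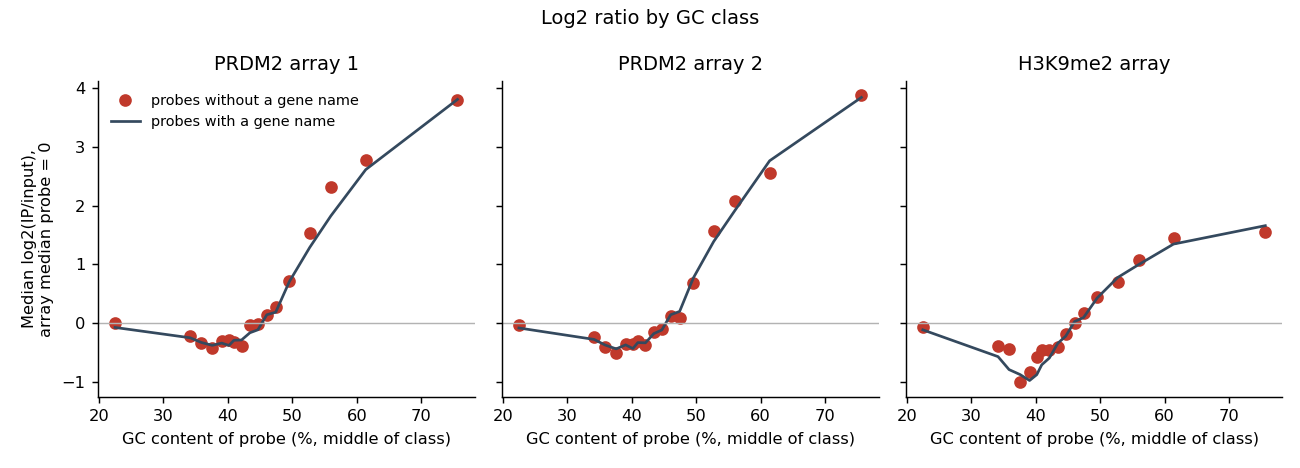
Median log2(IP/input) in 17 classes of GC content for probes without a gene name (points) and with one (line), by array, with the median probe of the array at 0. The points run along the line and reach 3.80, 3.88 and 1.54 in the richest class; from 54.2% to 57.8% GC they lie above it, at 2.32 against 1.82 on PRDM2 array 1.

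Within classes of like GC content, unnamed and named PRDM2 values differed by less than the spread between the arrays. The difference, unnamed minus named, was 0.04 on array 1 and -0.003 on array 2, a mean of 0.018 ± 0.030 (SD, n = 2). On the H3K9me2 array it was 0.11, a value with no replicate. An exact sign permutation over 2 arrays cannot give a p below 0.5, so none was computed. On the H3K9me2 array the input of unnamed probes was lower by 0.13 log2 units than that of named probes of like GC content, and the IP differed by -0.0004. For PRDM2 the input differed by -0.11 and -0.004 and the IP by -0.04 and -0.02. With named probes of the same number of CG in place of GC classes, a setting chosen after the data were seen, the difference was -0.06 and -0.09 for PRDM2 and -0.06 for H3K9me2.

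CG number followed GC content. The 93 unnamed probes with at least 5 CG had medians of 3.77, 3.88 and 1.49, against 3.74, 3.85 and 1.61 for 6803 such named probes. The 3190 unnamed probes with no CG had -0.13, -0.19 and -0.04, against -0.10, -0.13 and -0.05 for 109762 named probes. Within 50% to 60% GC, 90 unnamed probes with at least 3 CG had medians of 1.78, 1.94 and 0.76, against 1.82, 1.62 and 0.94 for 169 with none. Their median GC contents still differed, at 57.8% against 53.3%, so CG number was not separated from GC content here. The ranges from the first to the third quartile overlapped widely, at -0.04 to 3.90 with at least 3 CG against 0.15 to 3.33 with none on PRDM2 array 1. The GC box GGGCGG, searched on both strands and known as the site of Sp1-family factors, was in 32 unnamed probes (0.581%), against 1.09% of named probes. Those 32 probes had medians of 3.40, 3.01 and 0.86 at a median GC content of 64.4%.

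Position made a smaller difference. No unnamed probe lay within 1000 bp of a named one. The 186 within 10000 bp differed from named probes of like GC content by 0.18, 0.10 and 0.02 on PRDM2 array 1, PRDM2 array 2 and the H3K9me2 array. The 2914 at up to 100000 bp differed by 0.01, -0.03 and 0.03, and the 2408 farther out by 0.05, 0.02 and 0.24. The largest of these values, on the H3K9me2 array, belonged to the most remote probes, which also had the lowest median GC content, 38.3%.

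Chromosome 12 held the largest share of unnamed probes among its own, 5.19%, and chromosome 8 the smallest, 1.11%. The input signal of unnamed probes differed between chromosomes. On chromosome 15 it exceeded that of named probes of like GC content by 0.44, 0.47 and 0.40 on the 3 arrays, and on chromosome 16 it was lower by 0.37, 0.37 and 0.81. The log2 ratios went the other way on chromosome 15, at -0.03 and -0.26 for PRDM2 and -0.52 for H3K9me2 relative to named probes of the whole array. Against named probes of chromosome 15 itself those values were 0.16, -0.05 and 0.17, so the H3K9me2 deficit was shared by the named probes of that chromosome.

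Probe by probe, 176 of the 5478 unnamed probes with a value on all arrays were called higher than the median probe on PRDM2 arrays and 0 lower (limma, adjusted p under 0.05). That was 3.21% of them, against 4.99% of all probes called higher and 0.00381% called lower. Before adjustment 861 were higher and 388 lower (p under 0.05), or 15.7% and 7.08% of them, against 20.8% and 6.78% of all probes. The 176 calls depended on the processing: none was left with normexp, the value table, the GC trend removed, bright input, an eBayes trend or the mean probe as zero. Where input and IP were well above background, 235 of 2968 unnamed probes were called higher (7.92%, against 11.2% of all probes). Loess called 212 higher and 123 lower (3.87% and 2.25%, against 5.30% and 2.17% of all probes). The probe with the highest PRDM2 mean, 7.22 and 8.09 on the PRDM2 arrays and 3.45 on the H3K9me2 array, lay 623 bp from the RefSeq start of St7, a membrane protein gene named as a candidate suppressor of tumour growth. The next held no CG: the probe at chr2:57923779-57923825, printed above, had 7.21 and 7.41, against 3.91 on the H3K9me2 array. At chr6:41472481-41472534 stood the lowest PRDM2 mean, -2.67 ± 0.45 (SD, n = 2), against -2.58 on the H3K9me2 array (limma adjusted p = 0.0605). Both extremes thus moved in the same direction with either antibody.

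Averaged by region, 119 of 377 unnamed regions (31.6%) were called higher than the median probe on PRDM2 arrays and 6 (1.59%) lower. Among all regions of the array 45.7% were called higher and 1.26% lower (limma, adjusted p under 0.05). The split depends on the zero. With the mean probe of each array as zero, a setting chosen after the data were seen, 28 unnamed regions (7.43%) were higher and 90 (23.9%) lower, against 13.7% and 14.9% of all regions, and all 28 were among the 119. With the GC trend of named probes removed, 65 unnamed regions (17.2%) were higher and 5 lower, against 16.6% and 1.46% of all regions. Of the 119, 50 were also called with the GC trend removed. The 119 had a median GC content of 45.8%, against 39.3% for the 252 regions not called.

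The regions spanned a wide range of values. On PRDM2 array 1 they ran from -1.26 through a median of 0.39 to 3.58, and on array 2 from -0.81 through 0.18 to 2.69. On the H3K9me2 array they ran from -2.42 through -0.28 to 2.63. Over the 377 regions, which share the same 3 libraries, the PRDM2 arrays correlated with r = 0.73, and each correlated with the H3K9me2 array at r = 0.44 and r = 0.40. PRDM2 means also correlated with the GC content of the region, at r = 0.53.

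**Figure D2:**
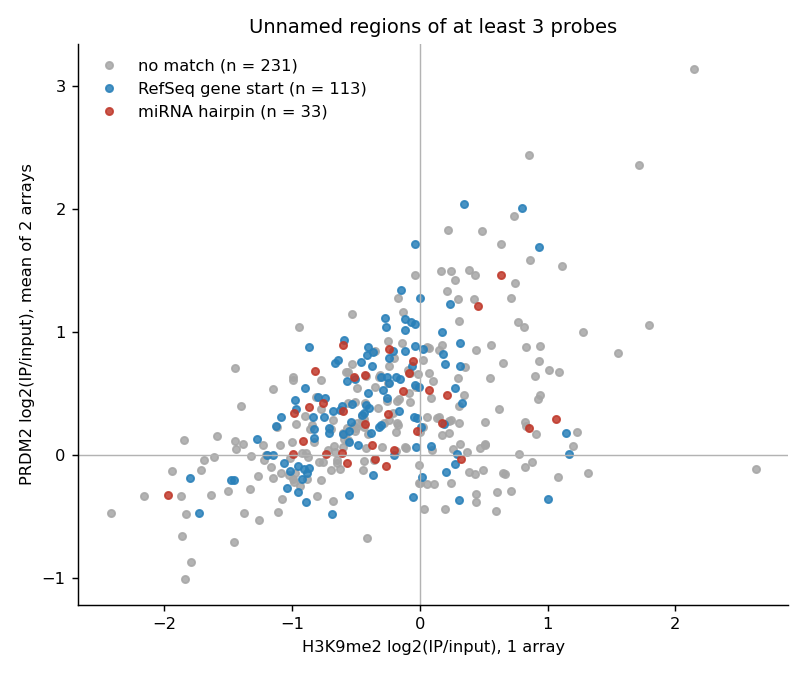
Mean log2(IP/input) of the 377 unnamed regions of at least 3 probes, with H3K9me2 (1 array) on the horizontal axis and PRDM2 (mean of 2 arrays) on the vertical axis, coloured by what the probes match in RefSeq. Regions with a hairpin or a gene start lie among the others, and the extremes at 3.13 for PRDM2 and 2.63 for H3K9me2 have no match.

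The highest PRDM2 regions fell into 2 kinds. The region at chr12:114557849-114558915 had 3.58 and 2.69 on the PRDM2 arrays and 2.15 on the H3K9me2 array, the highest PRDM2 mean of all unnamed regions (3.13 ± 0.63, SD, n = 2; limma adjusted p = 6.44e-06). Its 6 probes are poor in GC, at 31.5%, and the nearest named gene, Adam6, lies 565000 bp away. The input channel exceeded background clearly in 0, 2 and 2 of its 6 probes on PRDM2 array 1, PRDM2 array 2 and the H3K9me2 array, and lay 3.46, 2.88 and 1.42 log2 units below named probes of like GC content. Another such region, chr6:130128421-130128961, 34081 bp from the natural killer receptor gene Klra8, had 2.68 and 2.04 for PRDM2 and 1.72 for H3K9me2, with input above background at 0, 1 and 1 of 3 probes. Many of their IP signals were dim too. In the chromosome 12 region, 2, 1 and 3 of 6 probes had an IP that cleared background, in the same order of arrays. In the chromosome 6 region 0, 2 and 1 of 3 probes did. The ratios of both regions thus rest on input signals near background, where the denominator is only bounded, and in part on IP signals near background. The part of this in the ratio was not tested.

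The other 8 of the 10 highest had input well above background at all probes of both PRDM2 arrays. The region at chr17:65682354-65684317, 7847 bp from Rab31, a small GTPase of vesicle transport, had 2.69 and 2.17 for PRDM2 and 0.85 for H3K9me2 (limma adjusted p = 1.3e-05). Trim67, a gene of the tripartite motif family of ubiquitin ligases, had 2.28 and 1.80 over 20 probes, against 0.35 on the H3K9me2 array (limma adjusted p = 3.65e-05). Myl9, the regulatory light chain of smooth muscle and non-muscle myosin, had 2.46 and 1.56 over 10 probes, against 0.80 for H3K9me2 (limma adjusted p = 7.61e-05). Within-array loess left Trim67 at 0.98 and called, and Myl9 at 0.12 and not called. These 3 had GC contents of 48.8% to 55.3%.

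Low GC content did not go with all low values. The region at chr2:57922454-57923825, 50254 bp from Pscdbp, had a GC content of 40.1% and no CG, with 1.89 and 1.99 on the PRDM2 arrays and 0.74 on the H3K9me2 array (limma adjusted p = 3.68e-05). It owed its mean to few of its 6 probes: the highest had 7.21 and 7.41, and the median probe -0.38 and 0.71. The others of the 10 lay at chr11:58753382-58755090 near the histone gene Hist3h2ba (2.13 and 1.52), at chr12:4943465-4944761 (2.42 and 1.22), at chr12:99593120-99594853 (2.02 and 1.41) and at the start of C130073F10Rik (2.43 and 1.00). In all 4 the H3K9me2 value, from -0.04 to 0.64, was below both PRDM2 values.

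Regions called lower were few. The lowest, chr1:43134440-43135109, 23956 bp from Fhl2, had -1.26 and -0.76 for PRDM2 and -1.83 for H3K9me2 (limma adjusted p = 0.00238). Joined with a neighbouring run at gaps of up to 10000 bp, it averaged 0.26 and was not called. At chr1:163565250-163566613, 57148 bp from Fasl, which encodes the Fas ligand, the values were -0.996 and -0.75, against -1.79. This call too was lost with gaps of up to 10000 bp (-0.18, limma adjusted p = 0.499) and with the GC trend removed (limma adjusted p = 0.0505). Of the 5 lowest regions, 2 were called with the GC trend removed, 3 with loess and 0 with normexp. The other 4 lay at chr7:11669811-11673824, chr14:30150697-30151454, chr6:40989542-40993474 and chr12:106046444-106050216, with PRDM2 values between -0.83 and -0.51. H3K9me2 was also below the median probe in all 6, at -1.86 to -0.42.

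Of the 33 regions with a miRNA hairpin, 9 were called higher for PRDM2 (27.3%, against 45.7% of all regions) and 0 lower, and their probes reached a median of 2426.5 bp before to 1390.5 bp after the hairpin. The 9 had GC contents of 41.4% to 50.3%, against 34.0% to 47.2% for the other 24. Of the 9 calls, 2 were left with the GC trend removed, 2 with the mean probe as zero, 1 with loess, 1 with region medians and 0 with normexp. Both PRDM2 arrays were above the median probe in 20 regions and none was below it on both, while the arrays were split in 13. The H3K9me2 value was above the median probe in 8 of the 33.

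The highest was Mir34a, whose miRNA is known as a target of p53 and a brake on cell cycle genes. Its 13 probes averaged 1.504 and 1.42 on the PRDM2 arrays and 0.63 on the H3K9me2 array (PRDM2 mean 1.46 ± 0.06, SD, n = 2; limma adjusted p = 0.000187). The call held with the mean probe as zero at 0.90, missed the threshold with the GC trend removed (0.58, limma adjusted p = 0.0581) and turned to -0.47 after loess, where it was called lower (limma adjusted p = 0.0301). The hairpin itself was not its high point: the probe printed above had 0.41 and -0.58 for PRDM2 and 2.92 for H3K9me2.

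The 3 regions that encode miR-9, a miRNA of neural progenitors, did not have the same values. The Mir9-1 region, which also holds Mir3093, had 1.49 and 0.94 for PRDM2 and 0.45 for H3K9me2 (limma adjusted p = 0.000844), and it was called with the GC trend removed as well (limma adjusted p = 0.0188). The Mir9-3 region had 0.85 and 0.68, against -0.05 (limma adjusted p = 0.00912). The Mir9-2 region had 0.10 and 0.06 over 25 probes, against -0.37, and was not called (limma adjusted p = 0.773). Both PRDM2 arrays thus put the 3 regions in the same order, which is also that of their GC contents, 46.8%, 46.0% and 37.4%. Probes on the hairpins themselves had 4.14 and 1.54 at Mir9-1, 1.53 and 0.51 at Mir9-2, and 0.37 and 0.77 at Mir9-3.

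The other 6 called regions lay between 0.64 and 0.89 on average. Mir330 had 1.09 and 0.70 for PRDM2 and -0.61 for H3K9me2. Mir129-2, whose hairpin lies over that of Mir129b on the opposite strand, had 0.92 and 0.79, against -0.24, and its hairpin probe 4.03 and 3.96, against 0.73. Mir129-1, the other source of miR-129-5p, had 0.38 and 0.65, against -0.13, and was not called (limma adjusted p = 0.0584). Mir148a had 0.77 and 0.59, against -0.82. All 6 were above the median probe on both PRDM2 arrays and below it on the H3K9me2 array, and the difference was called in all but Mir193a. Mir193a had 0.56 and 0.77, Mir125b-1, a miRNA that the literature ties to slowed myoblast differentiation, 0.69 and 0.60, and Mirlet7b 0.85 and 0.43. With the mean probe as zero these 6 and Mir9-3 were not called, and with the GC trend removed, of the 9, Mir129-2 and Mir9-1 were.

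Mir133b, a muscle miRNA that is transcribed together with Mir206, was not called, with 0.84 and 0.13 for PRDM2 and 0.21 for H3K9me2 (limma adjusted p = 0.0992). The probe within its hairpin had 2.93 and 2.33, against 2.47. The region was called with the GC trend removed (limma adjusted p = 0.0342), as were those of Mir29a with Mir29b-1 (limma adjusted p = 0.0231) and Mir101a (limma adjusted p = 0.0489). Mir101a had 0.72 and 0.11, against -0.76. The Mir29a and Mir29b-1 region had 0.52 and 0.26, against -0.87, and the second miR-29 region, Mir29b-2 with Mir29c, had -0.19 and 0.21, against -0.995. Products of both miR-29 regions share a seed and are known to repress collagen genes; neither region was called against the median probe.

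The let-7 family, regulators of differentiation timing, was represented by 3 regions. Mirlet7b was called, but its PRDM2 mean turned negative with loess (-0.39) and normexp (-0.33). Mirlet7d had 0.44 and 0.15 for PRDM2 and 1.06 for H3K9me2, the highest H3K9me2 value of the 33. Mirlet7a-2 had -0.32 and 0.13, against -0.27. Neither of the regions with at least 4 hairpins was called: the Mir17 cluster had 0.39 and 0.27, against -0.25, and the chromosome 12 cluster from Mir541 to Mir410 had -0.01 and 0.05, against -0.61. The lowest was the region of Mir146, the source of miR-146a, with 0.05 and -0.69 for PRDM2 and -1.97 for H3K9me2.

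**Figure D3:**
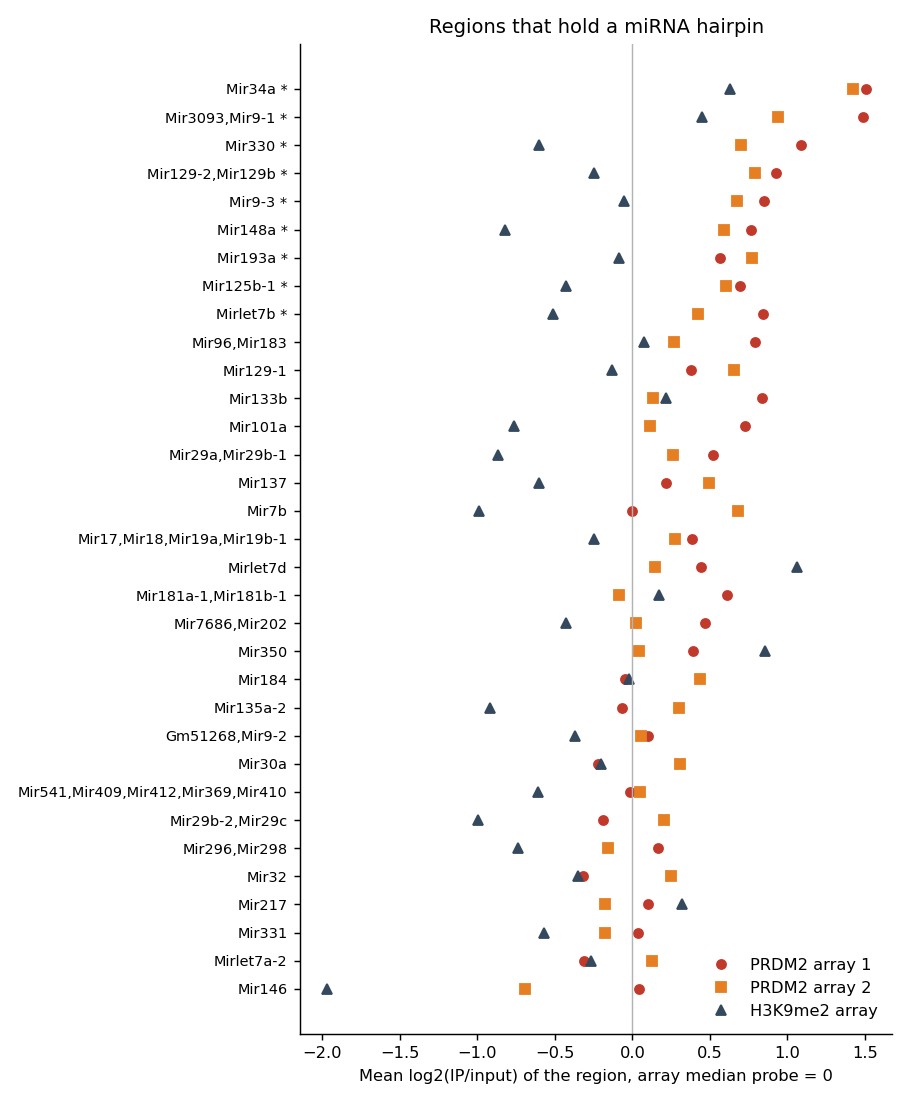
Mean log2(IP/input) of the 33 regions with a miRNA hairpin on each array, ordered by the PRDM2 mean; names with an asterisk were called higher by limma. PRDM2 arrays 1 and 2 run from 1.504 and 1.42 at Mir34a down to 0.05 and -0.69 at Mir146, and H3K9me2 is above the median probe in 8 regions.

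The 13 hairpin regions not yet described had PRDM2 means between -0.07 and 0.53, and none was called. The highest of them was that of Mir96 and Mir183, miRNAs of sensory organs, with 0.79 and 0.27, against 0.07. Among the 47 probes on hairpins, 3 were called higher for PRDM2 (6.38%, against 4.99% of all probes) and 0 lower, and at 8 of them a PRDM2 array was above 2 while the other was below 0. Around the hairpins the mean of unnamed probes in bins of 500 bp was highest on PRDM2 array 1 in the bins from 1000 bp before to 500 bp after the middle of the hairpin (0.68 to 0.74) and on PRDM2 array 2 in the bin from -2500 to -2000 bp (0.67). The arrays thus peaked in different bins.

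Regions at RefSeq starts that held no hairpin numbered 113 with at least 3 probes. Of them, 43 were called higher for PRDM2 (38.1%, against 45.7% of all regions) and 0 lower. After Trim67, Myl9 and C130073F10Rik, which the rule for named regions gave, the examples here were chosen after their values were seen. Jade1, a subunit of a histone acetyltransferase complex, had 1.60 and 1.77 for PRDM2 and 0.94 for H3K9me2. Prpsap1, which associates with phosphoribosyl pyrophosphate synthetase, had 1.37 and 1.30, against -0.15, and was called with the GC trend removed (limma adjusted p = 0.0113). Gnb1, a G protein beta subunit, had 0.98 and 1.17, against -0.07, but was not called with the GC trend removed (limma adjusted p = 0.877). Of the 113 regions, 11 were called higher with that trend removed (9.73%, against 16.6% of all regions) and 6 with the mean probe as zero (5.31%, against 13.7%).

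Averaged around RefSeq starts, including those in regions with a hairpin, unnamed probes peaked just inside the gene. From 0 to 500 bp after the start the mean of 291 unnamed probes was 1.06, 1.15 and -0.03 on PRDM2 array 1, PRDM2 array 2 and the H3K9me2 array, against 1.32, 1.29 and 0.17 for 25811 named probes. From 1000 to 500 bp before the start, 233 unnamed probes had 0.27, -0.04 and -0.58, against 0.39, 0.18 and -0.41 for 17602 named probes. GC content peaked in the same bin, at 49.8% against 40.6% upstream. Relative to named probes of like GC content the unnamed probes of the peak bin differed by -0.03, 0.06 and -0.20.

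**Figure D4:**
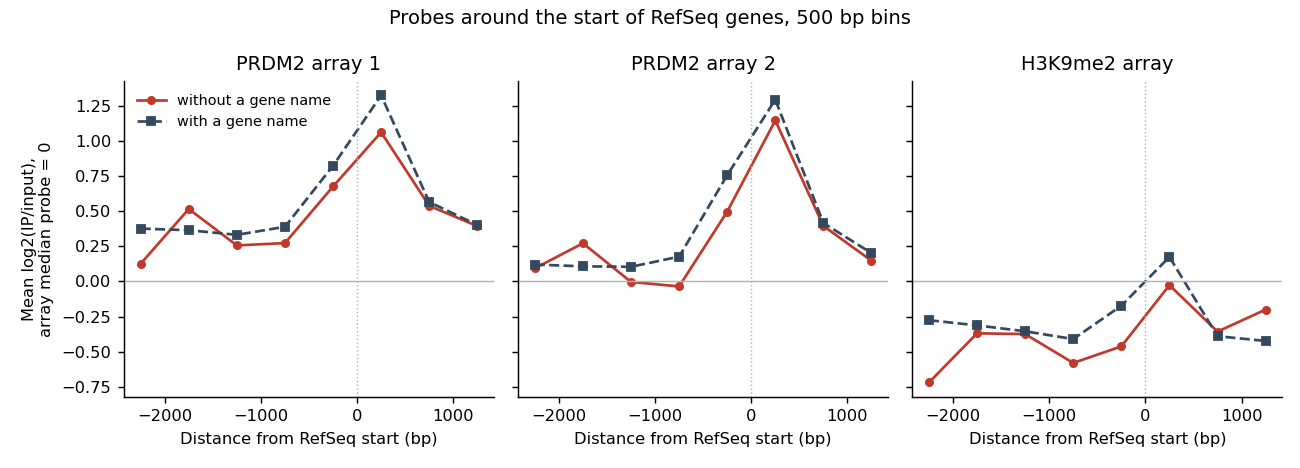
Mean log2(IP/input) of probes in bins of 500 bp by distance from the start of RefSeq genes, for probes without a gene name (circles) and with one (squares), by array. Both kinds peak from 0 to 500 bp after the start, where unnamed probes had 1.06, 1.15 and -0.03 and named probes 1.32, 1.29 and 0.17.

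The 231 tested regions with neither match gave 67 higher calls (29.0%, against 45.7% of all regions) and all 6 lower ones (2.60%, against 1.26%). Their PRDM2 medians were 0.34 and 0.11, against 0.50 and 0.29 at RefSeq starts and 0.39 and 0.27 at hairpins. Relative to the median named probe of like GC content, the medians of the 3 kinds were 0.37 and 0.16 with no match, 0.28 and 0.13 at RefSeq starts and 0.36 and 0.34 at hairpins. These are means over regions set against a median probe, so they are not centred on 0. With the GC trend removed, the median PRDM2 mean was 0.25 over all regions of the array and 0.28 over the unnamed ones. RefSeq starts, the highest kind before GC content was allowed for, were the lowest of the 3 on both arrays after it.

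The antibodies differed in some regions. PRDM2 exceeded H3K9me2 in 128 of 377 unnamed regions (34.0%) and was below it in 9 (2.39%), against 39.5% and 1.7% of all regions (limma, adjusted p under 0.05, with the lone H3K9me2 array assumed to vary like the PRDM2 pair). This split also rests on the zero: with the mean probe as zero, 0 unnamed regions were higher and 17 lower by limma. That was 0% and 4.51%, against 0.2% and 2.48% of all regions, and unadjusted p-values under 0.05 numbered 21 higher and 59 lower. With loess 7 were higher and 58 lower (1.86% and 15.4%, against 3.10% and 8.98% of all regions). With normexp background correction no region of the array was called by limma in either direction. Unadjusted p-values under 0.05 then numbered 16 higher and 19 lower among unnamed regions. Per probe, 0 differences were called in either direction, unnamed or named, and 947 unnamed probes were higher and 294 lower before adjustment (p under 0.05). Unadjusted shares over all probes and regions were not computed for this difference.

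The widest difference on the PRDM2 side was at chr16:4144023-4145321, 12898 bp from Crebbp, a histone acetyltransferase gene, with 0.85 and 0.57 for PRDM2 and -1.45 for H3K9me2 (difference 2.16, limma adjusted p = 0.00831). At chr11:102633722-102635903, 14450 bp from Higd1b, the values were 1.24 and 0.84, against -0.95. In the other 3 of the 5 widest, at chr2:170292051-170295178, chr8:34949565-34950413 and chr8:109388439-109389907, PRDM2 was between -0.80 and 0.21 and H3K9me2 between -2.42 and -1.85. There the difference lay in a low H3K9me2 value, not in a high PRDM2 value. In the first 2 regions the PRDM2 means were positive, but the median probe of the region was negative on both PRDM2 arrays. It had -0.35 and -0.18 in the chromosome 16 region and -0.16 and -0.24 in the chromosome 11 region.

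On the H3K9me2 side the widest difference was at chr6:57115687-57116535, 21163 bp from the vomeronasal receptor gene V1rc5. Its 5 probes had 0.27 and -0.51 for PRDM2 and 2.63 for H3K9me2, the highest H3K9me2 value of the unnamed regions (difference -2.75, limma adjusted p = 0.00831). At chr12:114735701-114738560 the values were -0.13 and -0.17, against 1.32, at Gm9871 -0.28 and -0.43, against 1.00, at chr1:164057619-164061544 -0.10 and -0.26, against 1.08, and at Gm1553 -0.03 and 0.04, against 1.17. Normexp turned the difference positive at chr6:57115687-57116535 (0.15) and at 3 of the other 4, with no call. All 5 had GC contents of 32.3% to 37.4%.

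Input moved with these H3K9me2 values. Of the 10 unnamed regions with the highest H3K9me2 value, 8 had H3K9me2-array input over 1 log2 unit below that of named probes of like GC content, and in 6 fewer than 50% of the probes had input well above background. Over the 377 regions the H3K9me2 ratio correlated with that input deviation at r = -0.49 (Spearman's rho -0.44), where input is also the denominator of the ratio. For PRDM2 the same r was -0.07 and -0.12. The 20 regions with under 50% of input probes above background on the H3K9me2 array had a median H3K9me2 ratio of 0.83, against -0.35 for the other 357, and a median GC content of 34.1% against 41.4%. Among the 194 regions with every input probe above background on all arrays, PRDM2 exceeded H3K9me2 in 89 and was below it in 0. The share among named regions of that kind was not counted. With only the dim input probes left out, PRDM2 was higher in 136 of 365 unnamed regions and lower in 8. That was 37.3% and 2.19% of them, against 44.0% and 0.923% of all regions. The part of dim input in the high H3K9me2 ratios was not tested.

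**Figure D5:**
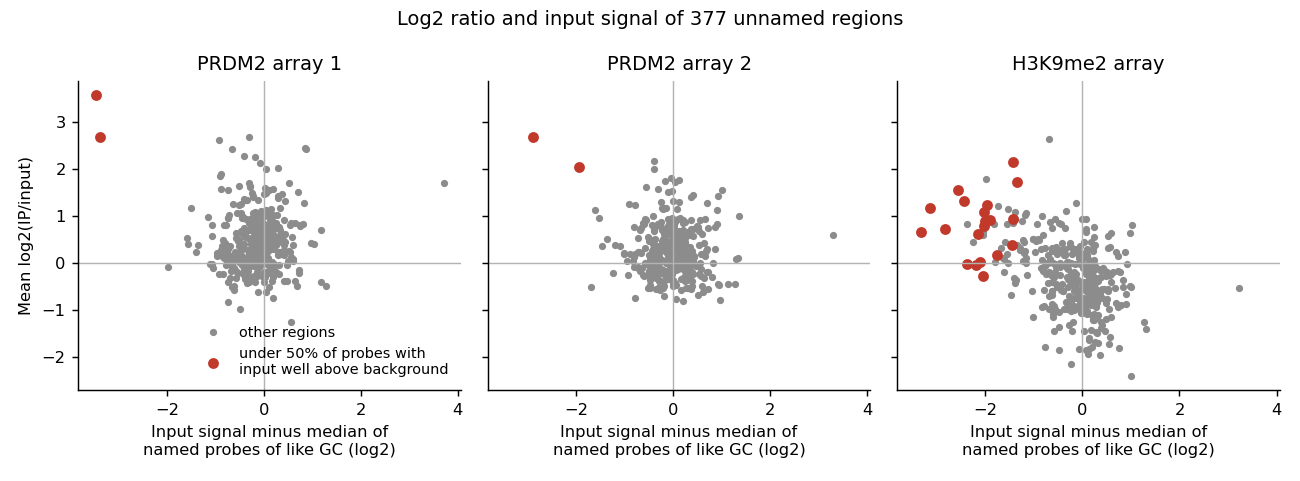
Mean log2(IP/input) of the 377 unnamed regions against their input signal relative to named probes of like GC content (log2), by array; large points are regions where under 50% of probes had input well above background. On the H3K9me2 array the 20 such regions have a median ratio of 0.83. Each PRDM2 array has 2 such regions, with median ratios of 3.13 on array 1 and 2.36 on array 2.

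At the other end of the input scale stood chr17:39452112-39454665, 218247 bp from Pgk2, chosen after its values were seen. Its input exceeded that of named probes of like GC content by 3.71, 3.29 and 3.23 log2 units on the 3 arrays. Its 11 probes, with a GC content of 64.4%, had ratios of 1.71 and 0.59 for PRDM2 and -0.53 for H3K9me2 (limma adjusted p = 0.00328 for PRDM2). No other unnamed region had so much input on any array.

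Of the 5 regions with the most probes, 1 was called higher for PRDM2. The 27 probes at the start of 5730596B20Rik, which RefSeq places over Hoxa3 and 7760 bp from the homeobox gene Hoxa2 on the array, had 1.25 and 0.87 for PRDM2 and -0.04 for H3K9me2 (limma adjusted p = 0.00155). Its median probe had 0.01 and 0.19 on the PRDM2 arrays. The call held with loess (limma adjusted p = 0.0242). It was lost with the GC trend removed (limma adjusted p = 0.0592), region medians, normexp and the mean probe as zero. The 27 probes at chr17:90611270-90615165, 1500240 bp from Fshr, had -0.01 and -0.23, against 0.49. Regions of 25 probes at chr11:29662762-29666576 and chr19:17188345-17192286 had 0.58 and 0.33, against -0.16, and 0.53 and -0.07, against -1.12, and neither was called for PRDM2.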

How the data were processed

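ChIP-on-chip was measured on 3 custom 2-colour Agilent arrays. Deposited intensities (processed, mean and background signals) and the log10 ratio per spot came from Agilent Feature Extraction 10.5.1.1, per the file headers; the deposited value table holds log2 ratios whose centring by the authors the sources used here do not state. Here log2 of Cy5 over Cy3 processed intensity was centred on each array's median non-control probe, after outlier spots were left out. Runs of probes without a name and with gaps of at most 1000 bp were averaged if they had at least 3 probes. limma 3.58.1 (lmFit, eBayes) in R 4.3.3 was fitted over all probes or regions, with Benjamini-Hochberg adjustment at 0.05, and was tested on simulated data. GC classes (17 after ties) were set over all autosomal probes. Sequences were matched exactly to RefSeq tables with Python 3.11.15 and pandas 2.3.3. Regions were named by rule: the 10 highest and 5 lowest for PRDM2, the 10 highest for H3K9me2, the 5 widest differences each way, the 5 with the most probes, the 5 highest and lowest probes, and every hairpin region. Members, lists and tests were chosen with earlier results of these data known. Alternatives were normexp, loess, the value table, removal of the GC trend, brighter probes, eBayes with a trend, other region rules, other GC classes and single PRDM2 arrays.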

Additional observations from a re-analysis of the deposited data

Results flagged for a closer look

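In 80 of the 377 unnamed regions both PRDM2 arrays lay above the median probe and the H3K9me2 array below it, with the difference called by limma, and in 5 the arrays lay the opposite way. These regions were flagged because the antibodies lay on opposite sides of the median probe under the same contrast of IP over input. The pattern of the 80 is not particular to unnamed regions. The medians over all regions of the array were 0.49 for PRDM2 and -0.24 for H3K9me2. The share of all regions of the array with these patterns was not counted. PRDM2 exceeded H3K9me2 by limma in 34.0% of unnamed regions, against 39.5% of all regions, and was below it in 2.39%, against 1.7%. With the mean probe as zero, a setting chosen after the data were seen, the counts of 80 and 5 became 0 and 16. With the GC trend removed they were 6 and 1. Loess gave 4 and 5. Normexp, region medians and both channels bright each gave 0 and 0. The counts were 20 and 1 in the value table. They stayed near the reported ones with bright input (78 and 3), an eBayes trend (76 and 8) and at least 5 probes (86 and 5). The counts thus depend on where the zero is placed, on the background correction and on how a region is summarised. The array and the antibody cannot be told apart. With 2 PRDM2 arrays and 1 H3K9me2 array no group was large enough to look for a sample far from the others.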

How the results depend on the processing

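Without PRDM2 replicate 1 or 2, the PRDM2 difference from named probes of like GC content was -0.003 to 0.039, and 18 of the 67 named regions, none of them called, had the opposite sign on an array taken alone; all 30 called ones kept theirs. Calls could not be repeated with 1 PRDM2 array. No paired analysis was possible because the H3K9me2 array carries no replicate number. Without GC classes that difference was -0.12 for PRDM2 and -0.11 for H3K9me2, and with the same number of CG -0.075 and -0.060; both settings and the mean probe as zero were chosen after the data were seen. For H3K9me2 it was 0.016 with normexp, 0.076 in the value table, 0.058 where input and 0.026 where both channels were well above background. The 176 probe calls became 0 with normexp, the value table, the GC trend removed, bright input, an eBayes trend or the mean probe as zero. They became 235 of 2968 with both channels bright (7.92%, against 11.2% of all probes). Loess called 123 probes lower (2.25%, against 2.17% of all probes). PRDM2 regions called higher and lower numbered 0 and 0 with normexp, 56 and 24 with loess, and 65 and 5 with the GC trend removed. They numbered 182 and 0 with both channels bright, 12 and 2 with region medians, and 28 and 90 with the mean probe as zero. An eBayes trend gave 122 and 11, and at least 5 probes left 3 lower. Loess called 14.9% of unnamed regions higher and 6.37% lower, against 20.0% and 7.13% of all regions. Higher calls with both channels bright made up 56.3%, against 70.3% of all regions. The same shares were 3.18% and 5.38% with medians, and 32.4% and 47.4% with an eBayes trend. PRDM2 minus H3K9me2 gave 0 and 0 with normexp, both channels bright or medians, 7 and 58 with loess, and 35 and 4 in the value table. It gave 10 and 12 with the GC trend removed, 133 and 15 with an eBayes trend, and 0 and 17 with the mean probe as zero. In the value table that was 9.28% and 1.06%, against 12.7% and 0.837% of all regions. With the GC trend removed it was 2.65% and 3.18%, against 3.54% and 1.86%. With an eBayes trend it was 35.3% and 3.98%, against 40.5% and 2.27%. PRDM2 means turned with loess at C130073F10Rik (-0.46), Mir34a (-0.47) and Mirlet7b (-0.39), with normexp at Mirlet7b (-0.33), with the GC trend removed at Mir193a (-0.14), with gaps of 10000 bp at chr1:43134440-43135109 (0.26) and Mir32 (0.64), and with medians at Mir148a (-0.24), Mir125b-1 (-0.18), chr11:102633722-102635903 (-0.20) and chr16:4144023-4145321 (-0.26). PRDM2 minus H3K9me2 turned with normexp at chr1:164057619-164061544 (0.52), Mir129-2 (-0.20), Myl9 (-0.83), C130073F10Rik (-0.62), 5730596B20Rik (-0.10), chr6:57115687-57116535 (0.15), Mir330 (-0.19), chr8:34949565-34950413 (-0.17), Trim67 (-0.24), Gm1553 (1.03), chr11:26682629-26686313 (0.57), chr11:58753382-58755090 (-0.66), chr12:99593120-99594853 (-0.92), chr12:114735701-114738560 (0.33), Mirlet7b (-0.93), chr18:8228172-8230467 (0.47) and chr19:17188345-17192286 (-0.24). It turned with loess at Mir181a-1 (-0.90) and Mir135a-2 (-0.017), with both channels bright at Mir135a-2 (-0.0091) and chr11:26682629-26686313 (0.34), and with medians at chr2:57922454-57923825 (-0.054), Mir101a (-0.30) and 5730596B20Rik (-0.070). The cause was not tested. The part of dim input in the ratios of regions poor in GC was not tested either.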

Other observations

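The 268 unnamed probes of chromosome X, in 24 regions, had medians of -0.16 and -0.13 for PRDM2 and 0.51 for H3K9me2, at a median GC content of 36.7%. Relative to named X-linked probes of like GC content they differed by -0.16, -0.20 and 0.07.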
